A study of Rattus norvegicus with 6 samples.

Results

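The miRNAs miR-204 and miR-211 were taken from a table of small RNA read counts as all rat names of the form rno-miR-204 or rno-miR-211, both arms included. This gave 4 of 910 names (763 of them rat miRNAs), namely rno-miR-204-5p, rno-miR-204-3p, rno-miR-211-5p, and rno-miR-211-3p. No name of another species matched. Small RNA came from the lens capsule of Sprague Dawley rat pups, with 3 rats in the control group and 3 in the Na2SeO3 group, and shared litters are not stated. The pups entered the experiment at an age of 8 days. The Na2SeO3 group was injected under the skin of the neck with sodium selenite (Na2SeO3) at 20 μmol/kg on days 3, 5, and 7, the control group received saline at the same times, and lenses were taken on day 15 of the experiment. Whether the injection days count from birth or from the start of the experiment is not given. Selenite given to rat pups is a standard model of cataract, in which the drug reaches the whole animal and not the lens alone. The titles call the groups WT and Model, and no genetic change is stated for either. Libraries are numbered 1 to 3 within each group.

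A miRNA gene is transcribed into a precursor that folds into a hairpin, and Dicer cuts the hairpin into a 5p and a 3p arm. The arm that is loaded into Argonaute pairs with target mRNAs through its seed, bases 2 to 8 from the 5′ end, and the partner arm is mostly degraded. In the eye, miR-204 and its paralogue miR-211 are known for high levels in the pigmented epithelia (retinal pigment epithelium, iris, ciliary body), and miR-204 is also known in the lens, where it represses the homeobox gene Meis2. Both genes are known as intronic genes of TRPM channels, Mir204 in Trpm3 and Mir211 in Trpm1, the latter under control of the pigment cell factor MITF.

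The mature sequences are shown because the seed and the differences between the paralogues decide what a count can tell. They are RefSeq sequences of GRCr8, found for all 4 names, 5′ to 3′, with the seed in capitals.

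rno-miR-204-5p: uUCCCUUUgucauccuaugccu
rno-miR-211-5p: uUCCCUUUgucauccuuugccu
rno-miR-204-3p: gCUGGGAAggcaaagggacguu
rno-miR-211-3p: gGCAAGGAcagcaaaggggg

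The 5p arms were both 22 bases long and differed by 1 substitution, A17U, counted from the 5′ end with the base of miR-204-5p first. Their seed was the same, and no other sequence among 693 rat mature miRNAs carried it. The 3p arms had different seeds and a longest common run of 8 bases (gcaaaggg), so that a read of a 3p arm names its gene, whereas a 5p read does so by 1 base. How the authors' counting treated reads with a mismatch is not given in the sources used here, and the division of 5p reads between the paralogues is uncertain to that extent. The 6 counts of each of the 4 arms differed from those of every other name.

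The hairpins are shown with both arms in capitals, to place the arms and show how far the genes differ outside them.

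Mir204: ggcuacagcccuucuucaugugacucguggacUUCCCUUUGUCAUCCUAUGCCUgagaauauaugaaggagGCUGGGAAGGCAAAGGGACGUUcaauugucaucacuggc
Mir211: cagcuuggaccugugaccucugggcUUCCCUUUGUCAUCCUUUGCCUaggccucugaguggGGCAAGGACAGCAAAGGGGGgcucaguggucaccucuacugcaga

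Mir204 lies at chr1:229743461-229743570 and Mir211 at chr1:127189328-127189433, both on the plus strand of GRCr8. The build behind the count table is not given, so these positions belong to the sequences and not to the counts. The hairpins of 110 and 106 bases shared 77 of 116 aligned positions (66.4%). Each gene lay inside the span of its known host, Trpm3 or Trpm1, also on the plus strand, and no other gene of the RefSeq table overlapped either. The nearest other miRNA genes were Mir101-2, at 6530 kb from Mir204, and Mir344i, at 2351 kb from Mir211.

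The counts summed to 1806596 to 2829903 reads in the control libraries and to 663096 to 968151 in the Na2SeO3 libraries. A count of 3, taken as the floor, corresponded to 1.06 to 1.66 CPM (counts scaled to a common library total) in the control group and to 3.10 to 4.52 CPM in the Na2SeO3 group, and all 4 arms lay above it in all 6 libraries. These limits, and the Poisson and binomial intervals below, cover counting error only. The edgeR intervals of log2 fold changes also take in the spread between libraries. The tissue label was checked with the miRNAs miR-184, miR-182, miR-183-5p, and miR-96-5p. These are known from lens and other eye tissues, so the check cannot tell lens from other parts of the eye. After TMM scaling their log2 fold changes were -1.13 for miR-184, 0.21 for miR-182, 0.21 for miR-183-5p, and -0.015 for miR-96-5p. A similar sum in both groups therefore does not mean that each member was level. Together they summed to 223778 to 241779 CPM of the library total in the control libraries and 232602 to 252999 in the Na2SeO3 libraries. Neural miRNAs known from the retina (6 names, miR-124-3p and miR-9a-5p among them) summed to 35529 to 36110 and 46155 to 52725 in the same unit, muscle miRNAs (6 names) to 6973 to 8196 and 14979 to 15344, and surface epithelium miRNAs (miR-205, miR-203a-3p, and miR-200c-3p) to 4301 to 5506 and 2462 to 2862. Glia and myelin miRNAs (4 names) summed to 40.0 to 47.6 and 110.1 to 138, and erythroid miRNAs to 215 to 280 and 408 to 529, while the leukocyte list overlapped. With the library total as the scale, the median log2 fold change of all names was 0.27, and the share of single names separating the groups was not counted. On this scale the neural, muscle, surface epithelium, glial, and erythroid lists each separated the groups. After TMM scaling all of these but the neural list still did, where single names did so in 46.3% of those tested, and the neural list overlapped, at 35097 to 42180 CPM in the control libraries and 40530 to 50865 CPM in the Na2SeO3 libraries. The pigmented epithelia have no list of their own, since miR-204 and miR-211 are themselves their best known miRNAs. The part of these cell types in the levels below was not tested, and in RNA from a whole tissue, fewer cells of a type and less RNA per cell cannot be told apart.

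The 5p arms were among the abundant miRNAs of the capsule and the 3p arms were not. By count, miR-204-5p ranked 14 to 17 among the rat names in the control libraries and 14 to 18 in the Na2SeO3 libraries, and miR-211-5p ranked 25 to 28 and 24 to 30. The ranks of miR-204-3p were 140 to 141 and 133 to 170, and those of miR-211-3p were 237 to 241 and 243 to 276. In 6 of 6 libraries the order was miR-204-5p, miR-211-5p, miR-204-3p, and miR-211-3p. By mean level over all 6 libraries, after TMM scaling (library sizes set on the assumption that the bulk of the miRNAs is stable), miR-204-5p (13381 CPM) stood between miR-1b (13457 CPM) and miR-30d-5p (13087 CPM). This order pools the groups: the mean of miR-204-5p was 15228 CPM in the control and 11534 CPM in the Na2SeO3 group, that of miR-1b 12329 and 14585 CPM, and that of miR-30d-5p 15079 and 11095 CPM. The level of miR-211-5p (4731 CPM) stood between those of miR-100-5p (4755 CPM) and let-7a-5p (4702 CPM), with an SD over the 6 libraries of 561.9 to 587 CPM, so that these 3 differed by less than their spread.

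**Figure D1:**
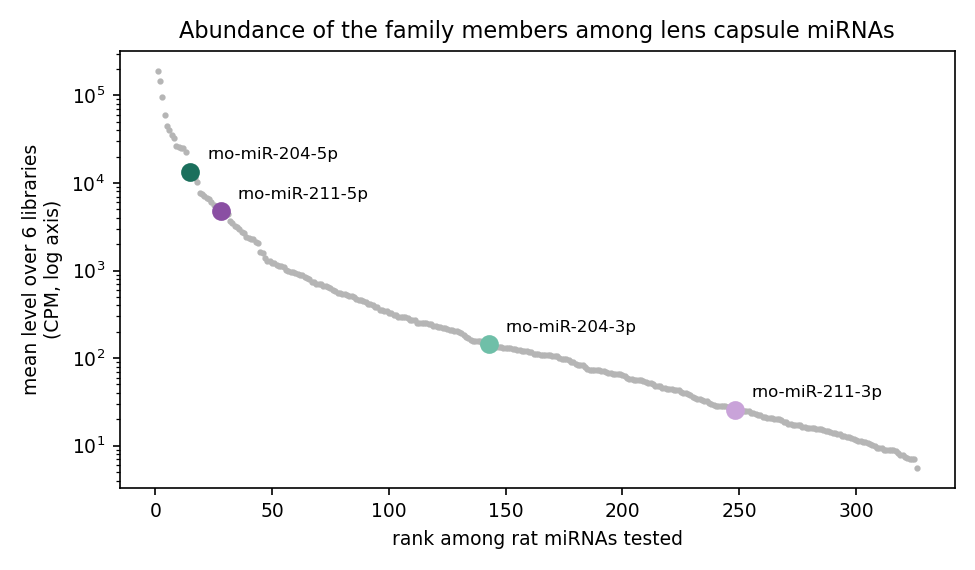
Mean level over 6 libraries (CPM after TMM scaling, log axis) of the 326 rat miRNAs tested, by rank, with the 4 arms coloured. The 5p arms stand at ranks 15 and 28 and the 3p arms at 143 and 248.

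All 4 arms together took 2.01%, 2.13%, and 1.61% of the reads counted for control rats 1 to 3 and averaged 1.92% ± 0.272 (SD, n = 3). In Na2SeO3 libraries 1 to 3 they took 2.02%, 1.78%, and 1.37%, and averaged 1.72% ± 0.326 (SD, n = 3). The groups overlapped, and the difference of -0.196 percentage points was smaller than the SD of either group (p = 0.6 in a two-sided exact permutation test, adjusted p = 1 over 5 tests of this kind, where 3 libraries against 3 cannot go below 0.1). With a library left out in turn the difference was -0.349 to -0.021 percentage points. As a share of the study's raw reads the family took 0.591% ± 0.195 in the control group and 0.208% ± 0.040 in the Na2SeO3 group (SD, n = 3 each), a difference of -0.383 percentage points, and the groups did not overlap (exact permutation test, p = 0.1). On that scale the groups did not overlap in 70.1% of the names tested (68.0% lower in the Na2SeO3 group), and all counted reads together were 25.6% to 39.7% of the raw reads in the control libraries and 11.4% to 13.0% in the Na2SeO3 libraries, and nothing particular to the family is read from the separation. Between 98.9% and 99.2% of the family's reads were 5p reads in every library.

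The comparison of the groups asks whether the miRNAs of a cataractous lens capsule differ from those of a clear one. None of the 4 arms passed an adjusted p of 0.05 in edgeR's quasi-likelihood test, against a background of 34.6% of the 341 names tested (13.8% lower in the Na2SeO3 group), and none was a differentially expressed miRNA (DEmiRNA, the same with an absolute log2 fold change above 1), against 16.4%. At an unadjusted p of 0.05, 1 of the 4 passed in edgeR, as did 44.3% of the names tested, and DESeq2 called 0 of the 4 after adjustment and 32.0% of the names. All 4 log2 fold changes were negative with TMM scaling, that of miR-211-5p turning to 0.000893 with the library total as the scale, and the groups overlapped in each, whereas they did not overlap in 46.3% of the names tested (21.1% lower in the Na2SeO3 group). The intervals give the size that these libraries leave room for: with TMM scaling, all 4 lay within a log2 fold change of -0.81 to 0.30. These statements hold for scalings that set the counted miRNAs against each other. With the study's raw reads per library as library size, all 4 arms passed at log2 fold changes of -1.57 to -1.35, as did 62.8% of the names tested (61.0% lower), and the median over all names moved from 0.079 to -1.07.

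The largest difference was that of miR-204-5p, the arm that carries most of the family's reads. It was counted 42584, 32944, and 21596 times in control libraries 1 to 3 and 9880, 12239, and 8305 times in Na2SeO3 libraries 1 to 3. Scaled by TMM, its levels were 14697, 17024, and 13963 CPM in the control group and 14374, 11101, and 9127 CPM in the Na2SeO3 group. Libraries 2 and 3 of the Na2SeO3 group lay below every control library, while library 1, the one with the fewest counted reads, lay inside the control range. The means were 15228 ± 1598 in the control group and 11534 ± 2650 CPM in the Na2SeO3 group (SD, 3 rats each). The log2 fold change was -0.40, with a standard error of 0.17 and a 95% interval of -0.77 to -0.031 (edgeR, unadjusted p = 0.0360, adjusted p = 0.0869). On the linear scale this is 0.757 of the control level, with an interval of 0.586 to 0.979. With the library total as the scale the log2 fold change was -0.21. Whether miR-204-5p passed depended on 1 library. With TMM scaling and without Na2SeO3 library 1 the log2 fold change was -0.62 (edgeR, adjusted p = 0.0111). That fit called 33.2% of the names tested (14.2% lower). Without any other library the adjusted p in edgeR was at least 0.145, and without Na2SeO3 library 3 the log2 fold change was -0.26.

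Its paralogue miR-211-5p, with the same seed, was counted 13891, 10927, and 7241 times in control libraries 1 to 3 and 3381, 4806, and 3624 times in Na2SeO3 libraries 1 to 3. The levels were 4794, 5647, and 4682 CPM in the control group and 4919, 4359, and 3983 CPM in the Na2SeO3 group. As for miR-204-5p, Na2SeO3 libraries 2 and 3 lay below the control range and library 1 inside it. Group means were 5041 ± 528 CPM and 4420 ± 471 CPM (SD, 3 rats each). This gave a log2 fold change of -0.19, its standard error being 0.15 and its 95% interval -0.52 to 0.14 (edgeR, adjusted p = 0.373). It was -0.097 without control library 2, -0.12 without Na2SeO3 library 3, and -0.30 without Na2SeO3 library 1.

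The 3p arm of miR-204 was counted 431, 305, and 247 times in the control libraries and 119, 112, and 113 times in the Na2SeO3 libraries. Its levels were 149, 158, and 159.7 CPM in the control group and 173, 102, and 124 CPM in the Na2SeO3 group. The control libraries lay close together and between Na2SeO3 library 1 on one side and libraries 2 and 3 on the other. The groups averaged 155 ± 5.81 CPM and 133 ± 36.6 CPM (SD, 3 rats each), or -0.24 as a log2 fold change, with a standard error of 0.20 and a 95% interval of -0.67 to 0.20 (edgeR, adjusted p = 0.411). With the library total as the scale it was -0.051. Without Na2SeO3 library 1 the TMM-scaled value was -0.49 with an adjusted p of 0.0481, and without Na2SeO3 library 2 it was -0.067 with an adjusted p of 0.827.

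The 3p arm of miR-211 was the rarest, with 83, 51, and 45 reads in control libraries 1 to 3 and 16, 32, and 16 reads in Na2SeO3 libraries 1 to 3. A count of 16 has an exact 95% Poisson interval of 9.15 to 26.0 counts. The levels were 28.6, 26.4, and 29.1 CPM in the control group and 23.3, 29.0, and 17.6 CPM in the Na2SeO3 group. Na2SeO3 library 2, the lowest of its group for miR-204-3p, was the highest of its group here. The averages of 28.0 ± 1.47 CPM and 23.3 ± 5.72 CPM (SD, 3 rats each) differed by -0.26 on the log2 scale, with a standard error of 0.26 and a 95% interval of -0.81 to 0.30 (edgeR, adjusted p = 0.489). Without Na2SeO3 library 3 the difference was -0.095, and without library 2 of that group it was -0.47. With all libraries and the library total as the scale the log2 fold change was -0.059.

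**Figure D2:**
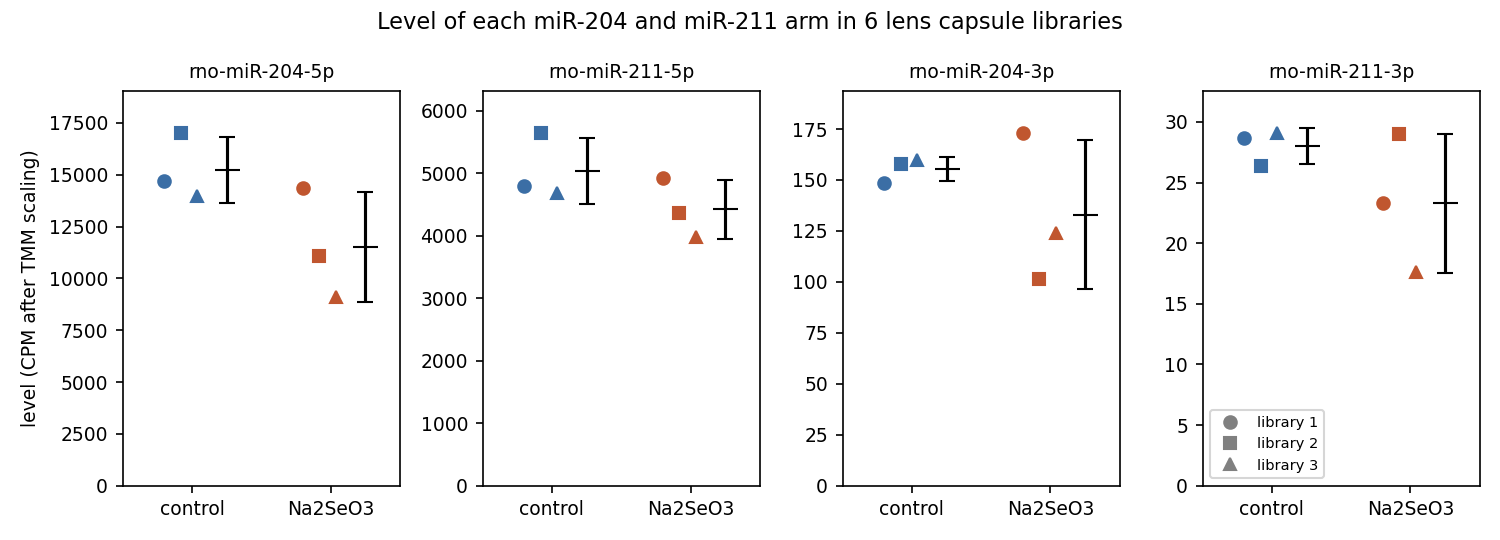
Level of each arm (CPM after TMM scaling, linear axes from 0) in 3 control and 3 Na2SeO3 libraries, 1 symbol per library number, with the group mean and SD in black. For both 5p arms, Na2SeO3 libraries 2 and 3 lie below the control libraries and library 1 among them, and in all 4 arms the groups overlap.

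A change of scale shifts all names by nearly the same amount, so the distance of an arm from the median of all names is nearly fixed by construction and is given as a description only. Under TMM, DESeq2 size factors, upper-quartile scaling, the library total, and raw reads, the log2 fold change of miR-204-5p minus the median of all names tested lay between -0.50 and -0.47. The same difference was -0.28 to -0.26 for miR-211-5p, -0.34 to -0.30 for miR-204-3p, and -0.33 to -0.32 for miR-211-3p.

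**Figure D3:**
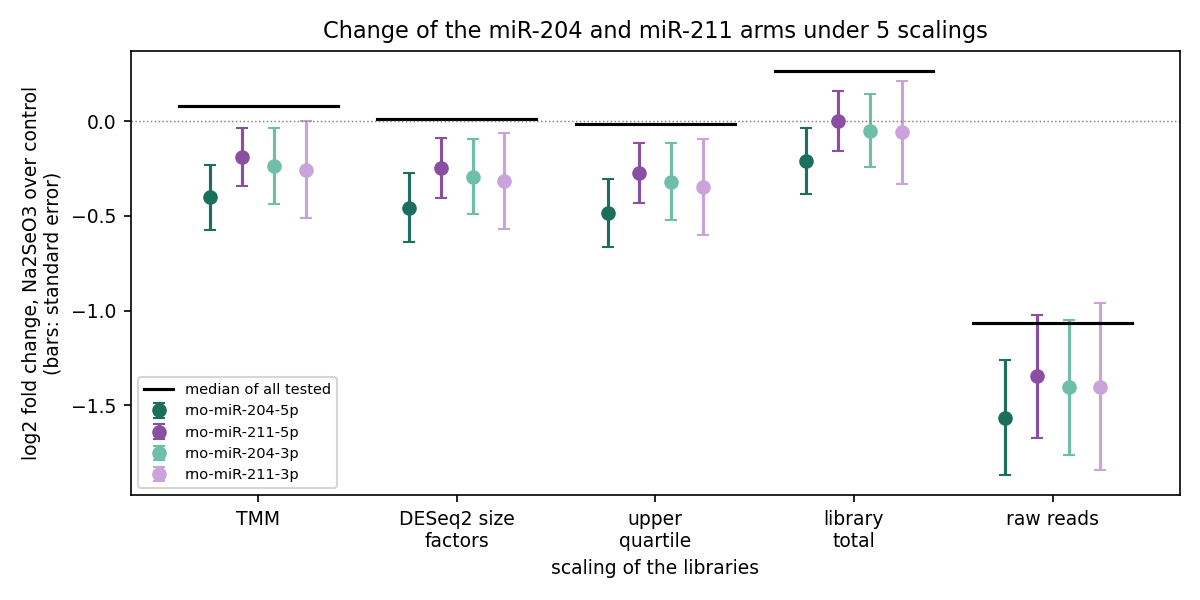
Log2 fold change of Na2SeO3 over control for the 4 arms under 5 scalings, with standard errors as bars and the median of all names tested as a black line. The points and the line move together, the line from 0.27 with the library total to -1.07 with raw reads.

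A ratio within a library does not depend on the scaling, so the balance of the paralogues was compared next. Reads of miR-204-5p made up 75.4%, 75.1%, and 74.9% of the 5p reads of both genes in control libraries 1 to 3 and 74.5%, 71.8%, and 69.6% in Na2SeO3 libraries 1 to 3, or between 3.07 and 2.29 reads of miR-204-5p per read of miR-211-5p. All 3 Na2SeO3 libraries lay below all 3 control libraries, as did the groups in 39.0% of 118 pairs of tested rat miRNAs with a common seed, in either direction, and in 48.4% of all 52975 pairs. The exact 95% binomial intervals of Na2SeO3 libraries 2 and 3 (71.1% to 72.5% and 68.8% to 70.4%) lay below those of the control libraries, the lowest of which began at 74.4%, while that of library 1 (73.8% to 75.2%) overlapped them. On the log2 scale the ratio was 1.59 ± 0.020 in the control group and 1.36 ± 0.18 in the Na2SeO3 group (SD, n = 3 each), a difference of -0.23 (p = 0.1 in a two-sided exact permutation test, the lowest value that 3 against 3 allows, adjusted p = 0.5 over 5 tests). Without Na2SeO3 library 3 the difference was -0.15. A separation of this kind was common among the pairs, and 66 of the 118 pairs with a common seed differed between the groups by more than these paralogues did, in either direction.

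The 3p arms, which do not share their sequence, gave a different balance. Reads of miR-204-3p made up 83.9%, 85.7%, and 84.6% of the 3p reads of both genes in the control libraries and 88.1%, 77.8%, and 87.6% in the Na2SeO3 libraries. Library 2 of the Na2SeO3 group was the lowest of all 6 and the other two of that group the highest, so the groups overlapped. The log2 ratio was 2.46 ± 0.10 and 2.48 ± 0.59 (SD, n = 3 each), with a difference of 0.016 (exact permutation test, p = 1) that took either sign when a library was left out, from -0.17 to 0.36. The interval of Na2SeO3 library 2, from 144 reads, ran from 70.1% to 84.3%.

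**Figure D4:**
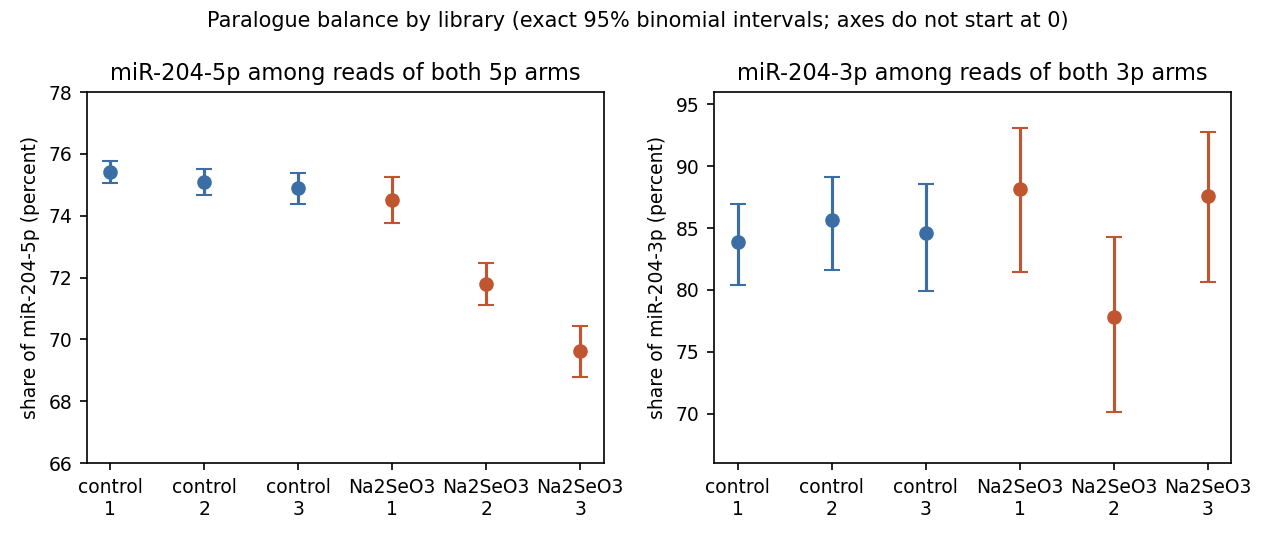
Share of miR-204 among the 5p reads (left) and the 3p reads (right) of miR-204 and miR-211 in each library, in percent, with exact 95% binomial intervals. On the left the 3 Na2SeO3 libraries lie at 69.6% to 74.5%, below the control libraries, and on the right the intervals are wide and the groups overlap.

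Both genes were strongly biased towards the 5p arm, which begins with U, whereas both 3p arms begin with G. There were 98.8, 108, and 87.4 reads of miR-204-5p per read of miR-204-3p in control libraries 1 to 3 and 83.0, 109, and 73.5 in Na2SeO3 libraries 1 to 3. For miR-211 the numbers were 167, 214, and 161 in the control libraries and 211.3, 150.2, and 226.5 in the Na2SeO3 libraries. The bias of miR-211 was the stronger in 6 of 6 libraries, by 0.44 to 1.59 on the log2 scale. Among the 72 rat miRNAs with a mean of at least 10 counts on both arms, of which 39 had more 5p than 3p reads, miR-211 had the third and miR-204 the sixth largest excess of the 5p arm, far above the median absolute log2 ratio of 2.89.

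The arm ratios overlapped between the groups. The log2 ratio of miR-204 was 6.61 ± 0.15 in the control group and 6.44 ± 0.29 in the Na2SeO3 group (SD, n = 3 each), a difference of -0.17 (p = 0.5 in a two-sided exact permutation test, adjusted p = 1 over 5 tests), or -0.33 to -0.041 with a library left out. That of miR-211 was 7.47 ± 0.22 and 7.56 ± 0.30 (SD, n = 3 each), a difference of 0.082 (exact permutation test, p = 0.9, adjusted p = 1), which took either sign with a library left out, from -0.030 to 0.26. Of the 72 miRNAs, 16.7% had arm ratios that did not overlap between the groups, and the median absolute difference was 0.31, larger than that of either gene.

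**Figure D5:**
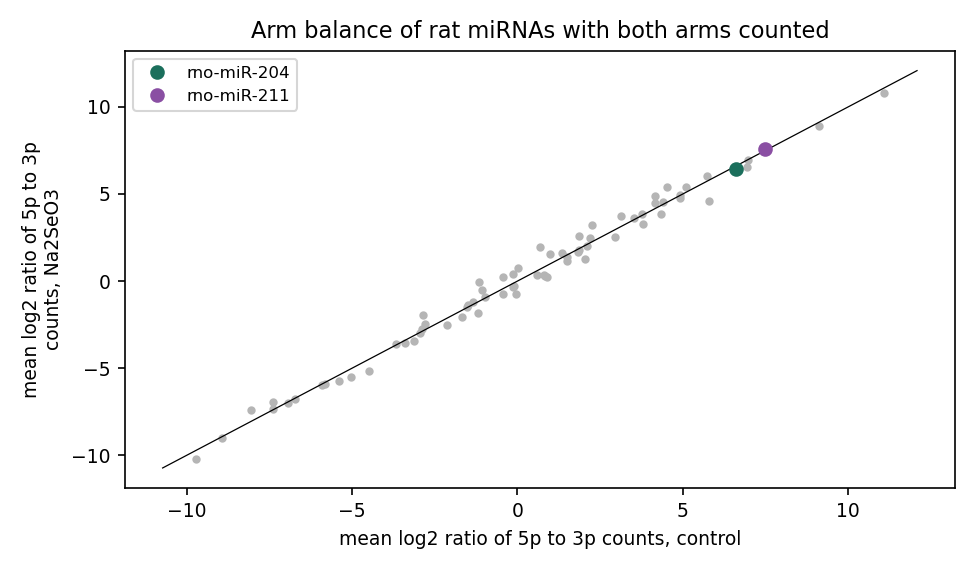
Mean log2 ratio of 5p to 3p counts in the control group (horizontal) and in the Na2SeO3 group (vertical) for 72 rat miRNAs, with the line of equal ratios. The points of miR-204 (6.61 and 6.44) and miR-211 (7.47 and 7.56) lie at the 5p end, near the line.

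Other miRNAs known from eye tissues gave the frame for these values. Their counts are read against all names tested, of which 13.8% fell and 20.8% rose with TMM scaling, 16.7% and 18.5% with DESeq2 size factors, 17.0% and 17.9% with upper-quartile scaling, 8.8% and 28.2% with the library total, and 61.0% and 1.76% with raw reads. Of the 10 on a list of such miRNAs, 5 fell in the Na2SeO3 group and none rose (adjusted p under 0.05 in edgeR), with a median log2 fold change of -0.32 against 0.079 for all names tested. This list and those of the cell types below were chosen with earlier results of these data known, so their counts are a description only. The abundant lens and cornea miRNA miR-184 fell from 81388 ± 6580 to 37222 ± 3191 CPM (SD, n = 3 each), and miR-200b-3p, an epithelial miRNA, fell from 1612 ± 187 to 589 ± 50.5 CPM (SD, n = 3 each), and both passed under all 5 scalings. The sensory miRNA miR-182 did not pass, at a log2 fold change of 0.21 (edgeR, adjusted p = 0.330), and did so with the library total as the scale (0.41), where 2 of the 10 rose (28.2% of all names) and 4 fell (8.8%). With raw reads as library size all 10 fell, as did 61.0% of all names. The miR-204 and miR-211 arms lay between -0.40 and -0.19 under TMM scaling, on either side of the median of that list.

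The miRNAs of other cell types moved as follows under TMM scaling. Of the 3 surface epithelium miRNAs 3 fell, with a median of -0.93, against 13.8% of all names, and also under the 4 other scalings, where 8.8% to 61.0% of all names fell. Of 5 muscle miRNAs tested 4 rose, against 20.8% of all names tested. The other, miR-499-5p, did not pass at -0.49 (edgeR, adjusted p = 0.0680) but fell with DESeq2 size factors, upper-quartile scaling, and raw reads, and with raw reads 0 of the 5 rose. Of 5 neural miRNAs tested, miR-9a-5p rose and miR-129-5p fell, but miR-9a-5p did not pass with DESeq2 size factors or upper-quartile scaling and fell with raw reads, and miR-129-5p did not pass with the library total. The 5 leukocyte miRNAs had log2 fold changes of -0.36 to 0.18 and none passed, whereas 4 of them fell with raw reads. Of 2 erythroid miRNAs tested miR-486 rose, but not with raw reads, and miR-451-5p was nearly level at 0.064 (edgeR, adjusted p = 0.833). Of 3 miRNAs of glia and myelin tested miR-219a-2-3p rose under all 5 scalings, with 5 to 13 reads per control library and 59 to 81 per Na2SeO3 library. Another of these, miR-338-3p, went the other way at -0.93 and did not pass (edgeR, adjusted p = 0.0519), but fell with DESeq2 size factors, upper-quartile scaling, and raw reads. Of the neural, glial, muscle, and erythroid names, 4 had too few reads to be tested. No list had a name at 0 in all libraries.

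The miRNAs with the most similar profile were found by centring the log2 CPM of each miRNA over the 6 libraries and taking the root mean square difference, among 172 other rat miRNAs with a mean of at least 100 CPM. Closest to miR-204-5p were miR-125b-5p (0.11), miR-129-5p (0.11), and miR-125a-5p (0.12), with log2 fold changes of -0.30, -0.44, and -0.18, of which only that of miR-129-5p passed the test (adjusted p = 0.0356, edgeR). Closest to miR-211-5p were miR-100-5p (0.046), miR-22-5p (0.088), and let-7c-5p (0.091), none of which passed. The paralogue miR-211-5p was the eighth closest to miR-204-5p, at 0.15, and miR-204-3p was the eighteenth, at 0.21. Seen from miR-211-5p, miR-204-5p was 20th, and miR-204-3p was 31st, at 0.20. The likeness describes these 6 libraries only, whose differences in depth and group enter the profile of every miRNA.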

How the data were processed

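Reads were filtered by the authors (Cutadapt, Fqtrim), passed through FastQC, and compared with a rat genome from Ensembl, with miRDeep and HISAT2 named for their libraries. Versions, genome build, and miRNA annotation are not given in the sources used here. The deposited table holds raw read counts per miRNA name for 6 libraries, without normalization or pooling, and 341 of 910 names passed filterByExpr (minimum count 10). After TMM scaling, both groups entered edgeR's quasi-likelihood test without a further factor, and p-values were adjusted by Benjamini-Hochberg over all 341 names. A standard error is the log2 fold change divided by the root of its F statistic, and the prior count of log2 CPM values was 2. Ratios of counts had 0.5 added to both counts and were tested between groups by exact permutation, two-sided. The edgeR procedure was run on simulated data with as many names raised as lowered, which does not test the choice of scaling. The names printed were set by a rule: the 4 arms, names with their seed, listed eye and cell type miRNAs as counts with at most 3 examples, the 3 miRNAs closest in profile to each 5p arm, and the neighbours in abundance. The members and lists were chosen with earlier results of these data known. RefSeq mature sequences were found for 296 of 326 rat names tested. Alternatives were other scalings, filters, names, and tests, a replicate block, and leaving out each library. The tools were R 4.3.3, edgeR 4.0.16, DESeq2 1.42.0, SciPy 1.17.1, and Biopython 1.88. The mRNA libraries are not analysed here.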

Additional observations from a re-analysis of the deposited data

How the results depend on the processing

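Under the other scalings except raw reads, the other filters, DESeq2, and rat names only, none of the 4 arms passed an adjusted p of 0.05, and the lowest adjusted p was 0.0515 for miR-204-5p with upper-quartile scaling. With raw reads as library size 4 arms passed, at -1.57 for miR-204-5p, -1.35 for miR-211-5p, -1.40 for miR-204-3p, and -1.40 for miR-211-3p, and 214 names passed, of which 2.80% rose (60.2% with TMM, 76.2% with the library total), with 182 DEmiRNAs in place of 56. With the library total as the scale the value of miR-211-5p changed sign, to 0.000893. With each library left out in turn, 0 to 2 arms passed (2 without Na2SeO3 library 1), and the log2 fold changes were -0.62 to -0.26 for miR-204-5p, -0.30 to -0.097 for miR-211-5p, -0.49 to -0.067 for miR-204-3p, and -0.47 to -0.095 for miR-211-3p. Between 73 (without control library 2) and 128 names passed in these fits, with 75 without control library 3, against 118 with all libraries, and there were 45 to 62 DEmiRNAs. The cause of these differences was not tested. As a share of raw reads the difference of the family was -0.383 percentage points in place of -0.196, and the groups separated, as they did in 70.1% of the names tested on that scale. The paralogue and arm values, and the family share under its other alternatives, moved by less than the spread between libraries, and the 5p paralogue difference stayed between -0.32 and -0.15 with a library left out, where no exact p could go below 0.2.

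The numbers 1 to 3 recur in both groups, although the rats differ. Across names, the deviations from the group mean of libraries with a common number correlated at -0.17, -0.18, and -0.26, and 0 of 3 control libraries were closest to their own number, so the numbers were not taken as pairs. With the replicate block 97 names and none of the 4 arms passed, with log2 fold changes of -0.42 (adjusted p = 0.0954) for miR-204-5p, -0.19 for miR-211-5p, -0.26 for miR-204-3p, and -0.27 for miR-211-3p in edgeR. Depth limits the 3p arms most: as few as 16 reads of miR-211-3p stand behind a value.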
